A study of Mus musculus with 33 samples.

Results

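The genes described are 8 markers of the projection neurons of the striatum, read in bulk RNA of mouse nucleus accumbens: Drd1a, Tac1 and Isl1 on the D1 side, Drd2, Adora2a, Gpr6 and Sp9 on the D2 side, and Drd3. They were taken by their symbols in the deposited count table, where Drd1a is an older symbol of Drd1. All 8 are among its 24053 usable genes, and all 8 passed the filter on low counts that left 14602 genes for testing. The 33 libraries fall into 6 groups: 5 GF morphine, 6 GF saline, 5 Abx morphine, 6 Abx saline, 5 H2O morphine and 6 H2O saline. All mice were C57BL/6J and 7 to 9 weeks old or matched to that age. GF mice were germ-free animals bred and kept in isolators at the institution. Abx and H2O mice were raised conventionally and came from a commercial supplier, so germ-free status and the source of the animals cannot be told apart. Abx mice drank vancomycin (0.5 mg/mL), bacitracin (0.5 mg/mL), neomycin (2 mg/mL) and the antifungal pimaricin (1.2 µg/mL), starting 2 weeks before the procedures, and H2O mice drank water. Morphine mice received daily morphine injections (20 mg/kg) over 7 days and saline mice received saline. Whole cages were assigned to a drink, and the labels give no cage for a mouse. Titles number the libraries within a group and each was counted as 1 mouse, though no label says so, and the p-values measure the spread between these libraries, which may be technical in part.

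Most neurons of the nucleus accumbens are medium spiny neurons, GABA-releasing projection cells that read the dopamine signal. One class carries the dopamine D1 receptor, which raises cyclic AMP, and makes substance P from Tac1. The other carries the dopamine D2 receptor, which lowers cyclic AMP, together with the adenosine receptor encoded by Adora2a, which raises it, and makes enkephalin. Isl1 is a transcription factor that D1 neurons need in development and that cholinergic interneurons also use, and Sp9 is a transcription factor needed for D2 neurons to form. Gpr6 is an orphan receptor of D2 neurons that raises cyclic AMP. Drd3, the D3 receptor gene, is used by granule cells of the islands of Calleja and by some medium spiny neurons of both classes, so it was put on neither side.

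Reads counted to genes ranged from 4.87 to 15.3 megareads per library, and depth went with germ-free status. Of the 11 GF libraries 10 held 4.87 to 8.125 megareads, below every Abx or H2O library (9.36 to 15.3). Reads given to no gene made up 19.3% to 35.4% in GF libraries and 20.6% to 26.4% in Abx and H2O libraries, with 3 GF libraries above all of those. The part of depth and of unassigned reads in the GF differences was not tested. A list of genes shared by both medium spiny classes marks striatal neurons and cannot single out the nucleus accumbens. Of its genes 16 of 16 were tested, and their summed level lay between 4920 and 15100 CPM (read counts relative to library size, scaled by library factors). Genes of neighbouring tissue varied beside them. The cortical-type list of 6 genes summed to 8.77 to 11.96 CPM in GF morphine, 8.72 to 360 CPM in GF saline, 153 to 970 CPM in Abx morphine, 86.8 to 1467 CPM in Abx saline, 8.53 to 1164 CPM in H2O morphine and 12.8 to 671 CPM in H2O saline libraries. Libraries that stood apart were GF saline replicate 1, the deepest of the GF libraries, GF saline replicate 5, whose 5 oligodendrocyte genes summed to 9823 CPM against 5315 to 6142 CPM in H2O saline, and Abx saline replicate 5, which had the cortical-type sum of 1467 CPM. The 2 member calls, the spread of Drd1a, the main differences in balance and the correlations between members are given with and without them. In bulk tissue, fewer cells of a type and less RNA per cell cannot be told apart.

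The gene starts of both receptors, and of one partner on each side, are shown to give the letters behind 4 genes whose levels varied together over libraries. RefSeq (GRCm38.p6) gave windows of 250 bases before the start for 7 of the 8 genes, 8 windows in all since Drd1 has 2 starts; Adora2a had none. Capitals mark TGACG or its reverse complement CGTCA, the half-site of the cyclic AMP response element. For Drd1 the window of the upstream start is printed.
Drd1 (chr13:54055659-54055908, minus strand): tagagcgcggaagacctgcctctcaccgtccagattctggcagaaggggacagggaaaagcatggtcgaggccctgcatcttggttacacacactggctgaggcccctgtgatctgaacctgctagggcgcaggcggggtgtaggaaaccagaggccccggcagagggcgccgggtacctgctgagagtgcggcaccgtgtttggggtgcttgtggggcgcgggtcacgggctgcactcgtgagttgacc
Tac1 (chr6:7554811-7555060, plus strand): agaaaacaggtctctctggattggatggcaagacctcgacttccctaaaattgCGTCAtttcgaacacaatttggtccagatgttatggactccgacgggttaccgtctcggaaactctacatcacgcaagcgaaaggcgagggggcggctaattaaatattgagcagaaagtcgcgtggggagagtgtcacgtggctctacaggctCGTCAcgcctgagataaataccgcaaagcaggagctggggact
Drd2 (chr9:49340153-49340402, plus strand): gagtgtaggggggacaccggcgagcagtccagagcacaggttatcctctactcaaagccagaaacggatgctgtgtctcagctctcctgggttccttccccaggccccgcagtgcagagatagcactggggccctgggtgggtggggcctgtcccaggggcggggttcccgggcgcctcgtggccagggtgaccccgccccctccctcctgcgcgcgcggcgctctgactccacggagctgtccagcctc
Gpr6 (chr10:41072291-41072540, minus strand): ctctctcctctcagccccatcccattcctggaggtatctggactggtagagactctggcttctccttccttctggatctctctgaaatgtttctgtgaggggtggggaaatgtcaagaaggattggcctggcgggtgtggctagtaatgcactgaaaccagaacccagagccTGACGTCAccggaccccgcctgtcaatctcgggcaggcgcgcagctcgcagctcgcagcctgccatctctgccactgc
The Tac1 and Isl1 windows each held 2 half-sites. Both half-sites of the Gpr6 window overlap in 1 full element, TGACGTCA. Of the 32851 mouse windows of this length in the same table, 17.8% held at least 1 half-site and 1.55% a full element, searched on both strands. The windows of Drd1, Drd2, Drd3 and Sp9 held none. The GC box GGGCGG or CCGCCC, present in 32.7% of all windows, stood 2 times in the Drd2 window, 1 time each in those of Tac1 and Sp9 and in the second of Drd1, and in no window of Gpr6, Isl1 or Drd3. GC made up 68.8% of the bases of the Drd2 window, 64% of the Drd1 window printed and 51.2% of the Tac1 window, against a median of 52.4% over all windows. These letter matches describe the windows and say nothing of use by a factor.

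Set per kilobase of exon in the GENCODE M21 annotation, the members fall into 2 tiers. In H2O saline mice Adora2a averaged 117 ± 17.0 CPM per kb (SD, n = 6), Tac1 76.2 ± 3.77, Drd1a 72.3 ± 9.79, Drd2 61.7 ± 9.00 and Gpr6 44.45 ± 7.45 CPM per kb. Sp9 averaged 4.92 ± 0.753 CPM per kb, Drd3 4.39 ± 0.654 and Isl1 3.77 ± 0.591. The 2 tiers did not overlap in any H2O saline library, while within the upper tier Tac1, Drd1a and Drd2 overlapped. The lower tier rests on fewer reads: Drd3 had 18 to 175 reads per library, Sp9 59 to 403 and Isl1 68 to 294, against 140 to 5157 for the members of the upper tier.

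The genes of the D1 side were at similar levels in the 6 groups and spread most in GF saline mice. Drd1a averaged 205 ± 38.05 CPM in GF morphine, 236 ± 99.5 in GF saline, 243 ± 30.3 in Abx morphine, 239 ± 51.0 in Abx saline mice, 244 ± 47.7 in H2O morphine and 262 ± 35.5 in H2O saline mice (SD, n = 5 with morphine, 6 with saline). The coefficient of variation of Drd1a was 42.2% in GF saline against 13.5% in H2O saline mice. Over single GF saline libraries Drd1a ran from 91.7 CPM in replicate 5 through a median of 243 to 341 CPM in replicate 1, so the range covered that of every other group. Without replicates 1 and 5 the 4 remaining GF saline libraries ran from 155 to 340 CPM, with a mean of 245 ± 75.8 CPM and a coefficient of variation of 30.9%.

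Tac1, the substance P precursor, averaged 213 ± 43.7 CPM in GF morphine, 199 ± 84.1 in GF saline, 263 ± 15.6 in Abx morphine, 253 ± 44.8 in Abx saline mice, 240 ± 38.4 in H2O morphine and 259 ± 12.8 in H2O saline mice. Its libraries were 79.0, 203 and 307 CPM in GF saline mice (lowest, median, highest) and 246, 257 and 277 CPM in H2O saline mice. The H2O saline libraries were tight, 4 of 6 GF saline libraries lay below all of them and 1 lay above.

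Isl1 had its highest means in GF mice and its lowest in H2O saline mice. It averaged 20.5 ± 4.02 CPM in GF morphine, 19.0 ± 5.30 in GF saline, 18.35 ± 3.58 in Abx morphine, 17.5 ± 4.18 in Abx saline mice, 18.2 ± 4.03 in H2O morphine and 14.9 ± 2.34 in H2O saline mice. Neighbouring groups overlapped throughout this order, and so they did for each of the other 7 members.

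Drd3 averaged 9.09 ± 4.35 CPM in GF morphine, 8.20 ± 3.81 in GF saline, 8.66 ± 1.30 in Abx morphine, 7.49 ± 1.49 in Abx saline mice, 9.63 ± 2.00 in H2O morphine and 7.52 ± 1.12 in H2O saline mice. Single GF morphine mice had 12.95, 13.4, 9.36, 2.97 and 6.84 CPM, which holds both the highest and the lowest Drd3 library of the study. The lowest of these, replicate 5, rests on 19 reads.

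On the D2 side, 3 of the 4 genes had their highest mean in H2O saline mice, as did Drd1a on the D1 side. The shared medium spiny list also had its highest median there (12535 CPM). Drd2 averaged 108 ± 27.8 CPM in GF morphine, 128 ± 61.6 in GF saline, 114.5 ± 17.4 in Abx morphine, 127 ± 32.4 in Abx saline mice, 135 ± 29.1 in H2O morphine and 157 ± 22.9 in H2O saline mice. Adora2a averaged 218 ± 60.0 CPM in GF morphine, 226 ± 98.1 in GF saline, 216.5 ± 33.4 in Abx morphine, 271 ± 83.5 in Abx saline mice, 274.5 ± 61.4 in H2O morphine and 359 ± 51.9 in H2O saline mice. The H2O saline mean of Adora2a stood 84.2 CPM above the next group, H2O morphine, with overlapping libraries.

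Gpr6 averaged 51.3 ± 10.2 CPM in GF morphine, 56.6 ± 23.4 in GF saline, 63.4 ± 12.8 in Abx morphine, 66.6 ± 15.2 in Abx saline mice, 66.1 ± 14.7 in H2O morphine and 79.4 ± 13.3 in H2O saline mice. Sp9 had another order, with Abx saline mice on top: 20.2 ± 4.01 CPM in GF morphine, 19.8 ± 5.06 in GF saline, 24.1 ± 3.27 in Abx morphine, 27.7 ± 4.30 in Abx saline mice, 23.7 ± 2.75 in H2O morphine and 24.8 ± 3.80 in H2O saline mice. Exons of Sp9 overlap those of Cir1 on the opposite strand in GENCODE M21. The strand setting of the counting is not given in the sources used here, so reads of the 2 genes may not have been told apart where they overlap.

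**Figure D1:**
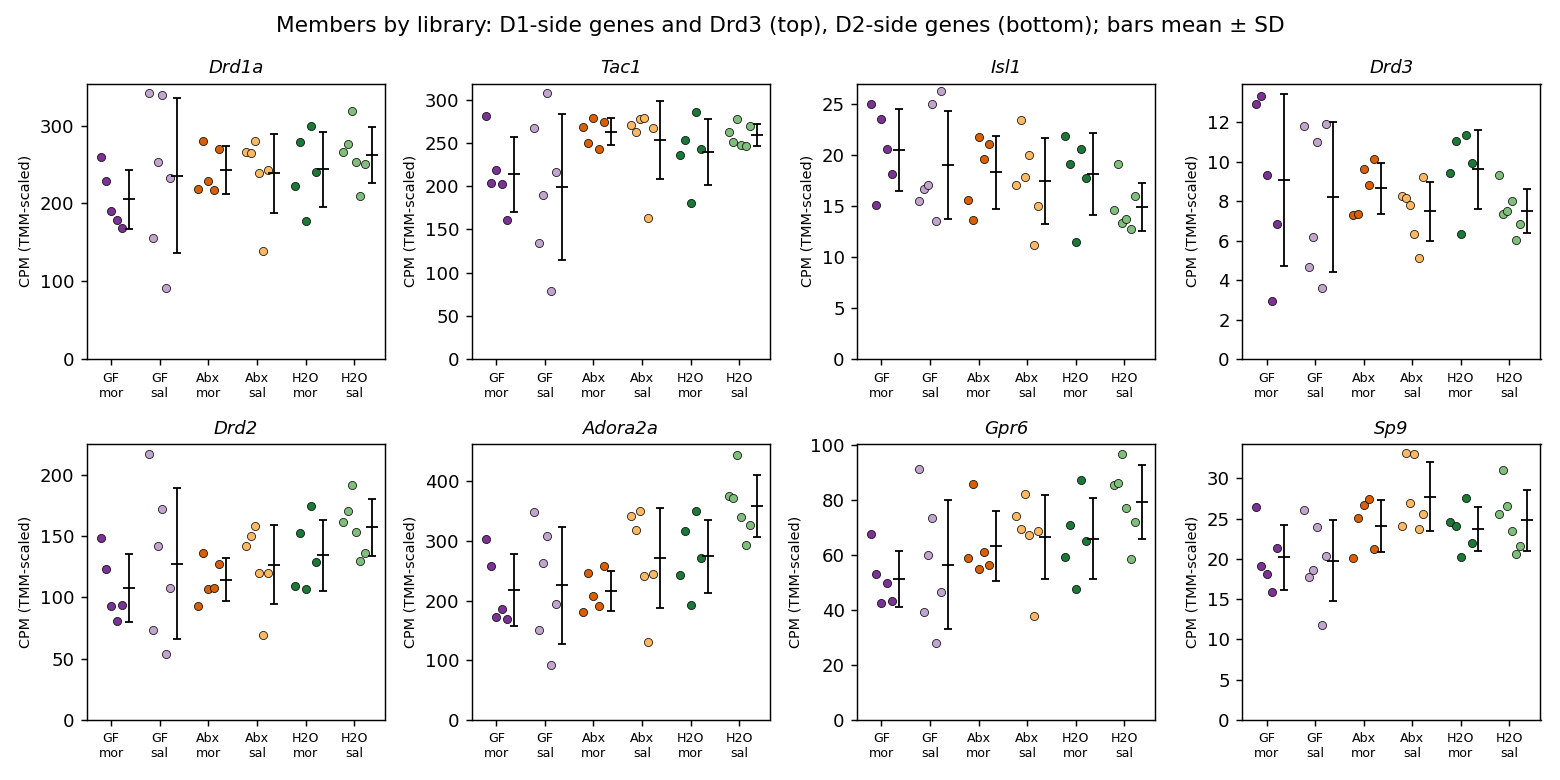
Level of each gene in CPM (y axis, from 0) for every library, by group (x axis); points are libraries and bars are mean ± SD. The GF saline libraries spread most for Drd1a, Tac1, Drd2, Adora2a and Gpr6, and 3 of 6 H2O saline libraries of Adora2a, up to 444 CPM, lie above the highest library of the other groups at 351 CPM, while the other 3 lie within their range.

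GF saline mice were set against H2O saline mice, which asks how being germ-free goes with expression in this region. Adora2a was the 1 member that passed, and it was lower. Its libraries were 91.1, 229 and 348 CPM in GF saline mice (lowest, median, highest) and 293, 356 and 444 CPM in H2O saline mice. Of the 6 GF libraries 4 lay below every H2O library and 2 lay within their range. The log2 fold change was -0.66 ± 0.23 (SE; edgeR quasi-likelihood test, two-sided, adjusted p = 0.0274). In this comparison 32.9% of the 14602 genes were called and 15% were called lower, so 1 of 8 members called is not more than over all genes.

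The other 7 members did not pass. Gpr6 had 27.9, 53.5 and 91.6 CPM in GF saline and 58.5, 81.3 and 96.9 CPM in H2O saline mice, a log2 fold change of -0.46 ± 0.20 (edgeR adjusted p = 0.0718), with 3 of 6 GF libraries below all H2O libraries. Sp9 differed by -0.30 ± 0.14 (adjusted p = 0.093), Drd2 by -0.29 ± 0.22 (adjusted p = 0.334), Tac1 by -0.37 ± 0.19 (adjusted p = 0.119) and Drd1a by -0.15 ± 0.20 (adjusted p = 0.599). Isl1 and Drd3 had positive values, 0.35 ± 0.18 (adjusted p = 0.125) and 0.18 ± 0.25 (adjusted p = 0.618). The median over the 8 members was -0.29, against 0.01 over all genes tested; 3 of 8 members had an unadjusted p under 0.05, against 43.6% of all genes tested.

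The call of Adora2a depended on single libraries. It was lost without GF saline replicate 2 (log2 fold change -0.57, edgeR adjusted p = 0.0668), replicate 5 (-0.50, adjusted p = 0.0613) or replicate 6 (-0.62, adjusted p = 0.0634), and without H2O saline replicate 5 (-0.59, adjusted p = 0.062). In a fit of these 2 groups alone it stood at -0.66 (adjusted p = 0.0593). Adora2a was also called without the 3 libraries that stood apart (-0.65, edgeR adjusted p = 0.00693), where Isl1 and Gpr6 passed too. GF saline replicates 1 and 5, left out there, were the highest (348 CPM) and the lowest (91.1 CPM) GF saline libraries of Adora2a. Leaving out both ends narrows the spread, so this fit is no independent check of the call. That fit called 5765 genes, against 4807 with all libraries. Base content moved with the comparison: over 14494 genes the log2 fold change correlated with GC content at Spearman -0.49, and the Adora2a transcript, at 59.2% GC, lies at percentile 93.4 of tested genes. With offsets for GC content and length Adora2a stood at -0.42 (adjusted p = 0.217) and was not called, while Tac1, at 42.8% GC, stood at -0.55 (adjusted p = 0.0271) and was.

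Genes of both medium spiny classes differed in the same comparison, where 32.9% of all genes were called, 15% as lower. Of the 16 shared genes 4 fell and 0 rose, with a median of -0.29: Ppp1r1b, the dopamine-regulated phosphatase inhibitor DARPP-32 (-0.46 ± 0.17, edgeR adjusted p = 0.0371), Gng7, a G protein subunit of the complex that links D1 and adenosine receptors to adenylyl cyclase (-0.42 ± 0.16, adjusted p = 0.0435), Pde1b, a calcium-activated phosphodiesterase (-0.49 ± 0.18, adjusted p = 0.0339), and the retinoid receptor gene Rxrg (-0.70 ± 0.21, adjusted p = 0.0113). Of 6 other D1 genes Slc35d3 fell (-0.55 ± 0.21, adjusted p = 0.0388) and of 5 other D2 genes Plxdc1 fell (-0.45 ± 0.15, adjusted p = 0.0216). The shared list summed to 4920 to 14290 CPM in GF saline (median 10169.5) and 10270 to 15100 CPM in H2O saline libraries (median 12535). The part of this list in the Adora2a result was examined by adding the list's level per library to the fit. Adora2a then stood at -0.28 (adjusted p = 0.0013) and Isl1 at 0.48 (adjusted p = 0.0323). Drd1a stood at 0.18 in it (edgeR adjusted p = 0.00735), against -0.15 without the covariate. In this fit Drd1a was thus higher in GF saline mice relative to the shared genes, while in CPM it did not differ beyond the spread. The fit called 36.3% of all genes and held no correction for GC content. Drd1a lies at GC percentile 29.4 of tested genes and Adora2a at 93.4. The part of base content in the values of 0.18 and -0.28 was not tested. Drd2 stood at 0.06 in that fit (adjusted p = 0.344).

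Markers of other cells also moved in this comparison, where 32.9% of all genes were called. The oligodendrocyte list summed to 3387 to 9823 CPM in GF saline and 5315 to 6142 CPM in H2O saline libraries. Of 5 cholinergic genes the choline transporter gene Slc5a7 rose (0.67 ± 0.22, edgeR adjusted p = 0.0214), and the list summed to 93.3 to 156 CPM in GF saline against 84.2 to 117 CPM in H2O saline libraries. Of 4 endothelial genes Cldn5, Kdr and Pecam1 fell, with sums of 79.8 to 143 CPM in GF saline and 146 to 168 CPM in H2O saline libraries. Of 3 tested pituitary genes Gh and Prl rose, with list sums of 2.09 to 71.8 CPM in GF saline and 2.12 to 3.96 CPM in H2O saline libraries, where Cga was at 0. The 6 cortical-type genes had a median of -1.15. The part of these in the members' values was not tested, apart from a fit with the cortical-type and hypothalamic levels, in which Adora2a stood at -0.65 (adjusted p = 0.034).

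GF saline mice were also set against Abx saline mice, so 2 ways of removing or depleting gut microbes were compared directly. Sp9 was the 1 member that passed and it was lower. It had 11.8, 19.5 and 26.1 CPM in GF saline (lowest, median, highest) and 23.7, 26.3 and 33.2 CPM in Abx saline mice, with 4 of 6 GF libraries below all Abx libraries. Its log2 fold change was -0.46 ± 0.14 (edgeR adjusted p = 0.0138), in a comparison where 27.3% of genes were called, 12.9% as lower. It held when each library was left out in turn, between -0.57 and -0.36. Sp9 was also called without the 3 libraries that stood apart (-0.49, adjusted p = 0.00802). These include the highest (26.1 CPM) and the lowest (11.8 CPM) GF saline libraries of Sp9, so leaving them out narrows the spread and is no independent check. With GC content and length offsets Sp9 stood at -0.39 (adjusted p = 0.0518), and in a fit of these 2 groups alone at -0.47 (adjusted p = 0.0547). Neither passed.

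The other members did not pass in GF saline against Abx saline mice. Drd1a (-0.01 ± 0.20) and Drd2 (0.02 ± 0.22) had values near 0, with edgeR adjusted p of 0.972 and 0.952. Adora2a differed by -0.26 ± 0.23 (adjusted p = 0.428) and Tac1 by -0.34 ± 0.19 (adjusted p = 0.168). Beside this result Chat and Slc5a7 of the 5 cholinergic genes rose (0.57 ± 0.17 and 0.81 ± 0.22), with sums of 93.3 to 156 CPM in GF saline against 42.1 to 113 CPM in Abx saline libraries. Neurod2 and Fezf2 of the 6 cortical-type genes fell, and the sums of that list are given above. Their part in the Sp9 value was not tested, apart from the fit with cortical-type and hypothalamic levels, where Sp9 stood at -0.50 (adjusted p = 0.0233).

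Abx saline mice were set against H2O saline mice, the effect of antibiotics alone. By edgeR 0 of 8 members passed, in a comparison that called 0.116% of genes. DESeq2 also called 0 of 8, and 0 had an unadjusted edgeR p under 0.05, against 12% of all genes. Adora2a again had the most negative value, -0.40 ± 0.23 (edgeR adjusted p = 0.501). Its libraries were 130, 281 and 351 CPM in Abx saline and 293, 356 and 444 CPM in H2O saline mice, and 3 of 6 Abx libraries lay below all H2O libraries. Drd2 differed by -0.31 ± 0.22 (adjusted p = 0.615) and Isl1 by 0.23 ± 0.17 (adjusted p = 0.648).

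Among morphine-treated mice 0 of 8 members passed in any comparison by edgeR, and 0 by DESeq2 or at an unadjusted p under 0.05. Over all genes 23.9% had such an unadjusted edgeR p in GF against H2O, 24.6% in Abx against H2O and 40.1% in GF against Abx mice. GF morphine against H2O morphine mice called 5.78% of genes, and the members ran from -0.36 for Gpr6 to 0.18 for Isl1 (smallest adjusted p = 0.322). Abx morphine against H2O morphine mice called 10.4% of genes, and the members ran from -0.34 for Adora2a to 0.13 for Tac1 (smallest adjusted p = 0.432). GF morphine against Abx morphine mice called 28.1% of genes, and the members ran from -0.30 for Gpr6 to 0.16 for Isl1 (smallest adjusted p = 0.218). In the GF and Abx comparison Tac1 had 281.5, 204, 218, 203 and 161 CPM in GF morphine and 268, 249.4, 279, 243 and 274 CPM in Abx morphine mice. There 4 of 5 GF libraries lay below all Abx libraries and 1 above them, with a log2 fold change of -0.30 ± 0.20 (adjusted p = 0.28).

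Chronic morphine was set against saline within each microbiome state, and 0 of 24 member values passed by edgeR or DESeq2, with 0 at an unadjusted p under 0.05. H2O mice had 0 of 14602 genes called by edgeR (0% of genes; 2223 at an unadjusted p under 0.05, 332 called by DESeq2). Abx mice had 5.37% called and GF mice 0.00685%. An unadjusted edgeR p under 0.05 was held by 15.2% of all genes in H2O, 20.7% in Abx and 6.64% in GF mice. In H2O mice Adora2a differed by -0.39 ± 0.24 (edgeR adjusted p = 0.451), with 242, 316, 193, 350 and 271 CPM under morphine and 293, 356 and 444 CPM (lowest, median, highest) under saline. In that comparison 3 of 5 morphine libraries lay below all saline libraries. Drd3 went the other way in H2O mice: 9.46, 11.1, 6.34, 11.35 and 9.94 CPM under morphine against 6.02, 7.435 and 9.33 CPM under saline, with 4 of 5 morphine libraries above all saline libraries and a log2 fold change of 0.35 ± 0.25 (adjusted p = 0.518). In Abx mice the largest value was that of Adora2a, -0.32 ± 0.24 (adjusted p = 0.481). In GF mice it was that of Drd2, -0.25 ± 0.24 (adjusted p = 0.85).

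Whether the morphine response differed between microbiome states was tested as 3 interactions. By edgeR 0 of 24 member values passed, by DESeq2 also 0, with log2 differences between -0.25 and 0.33 (smallest adjusted p = 0.635). Over all genes 0.11% were called for Abx minus H2O, 0% for GF minus H2O and 2.14% for GF minus Abx. Over the 72 pairwise member values of the 9 comparisons, 2 passed.

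**Figure D2:**
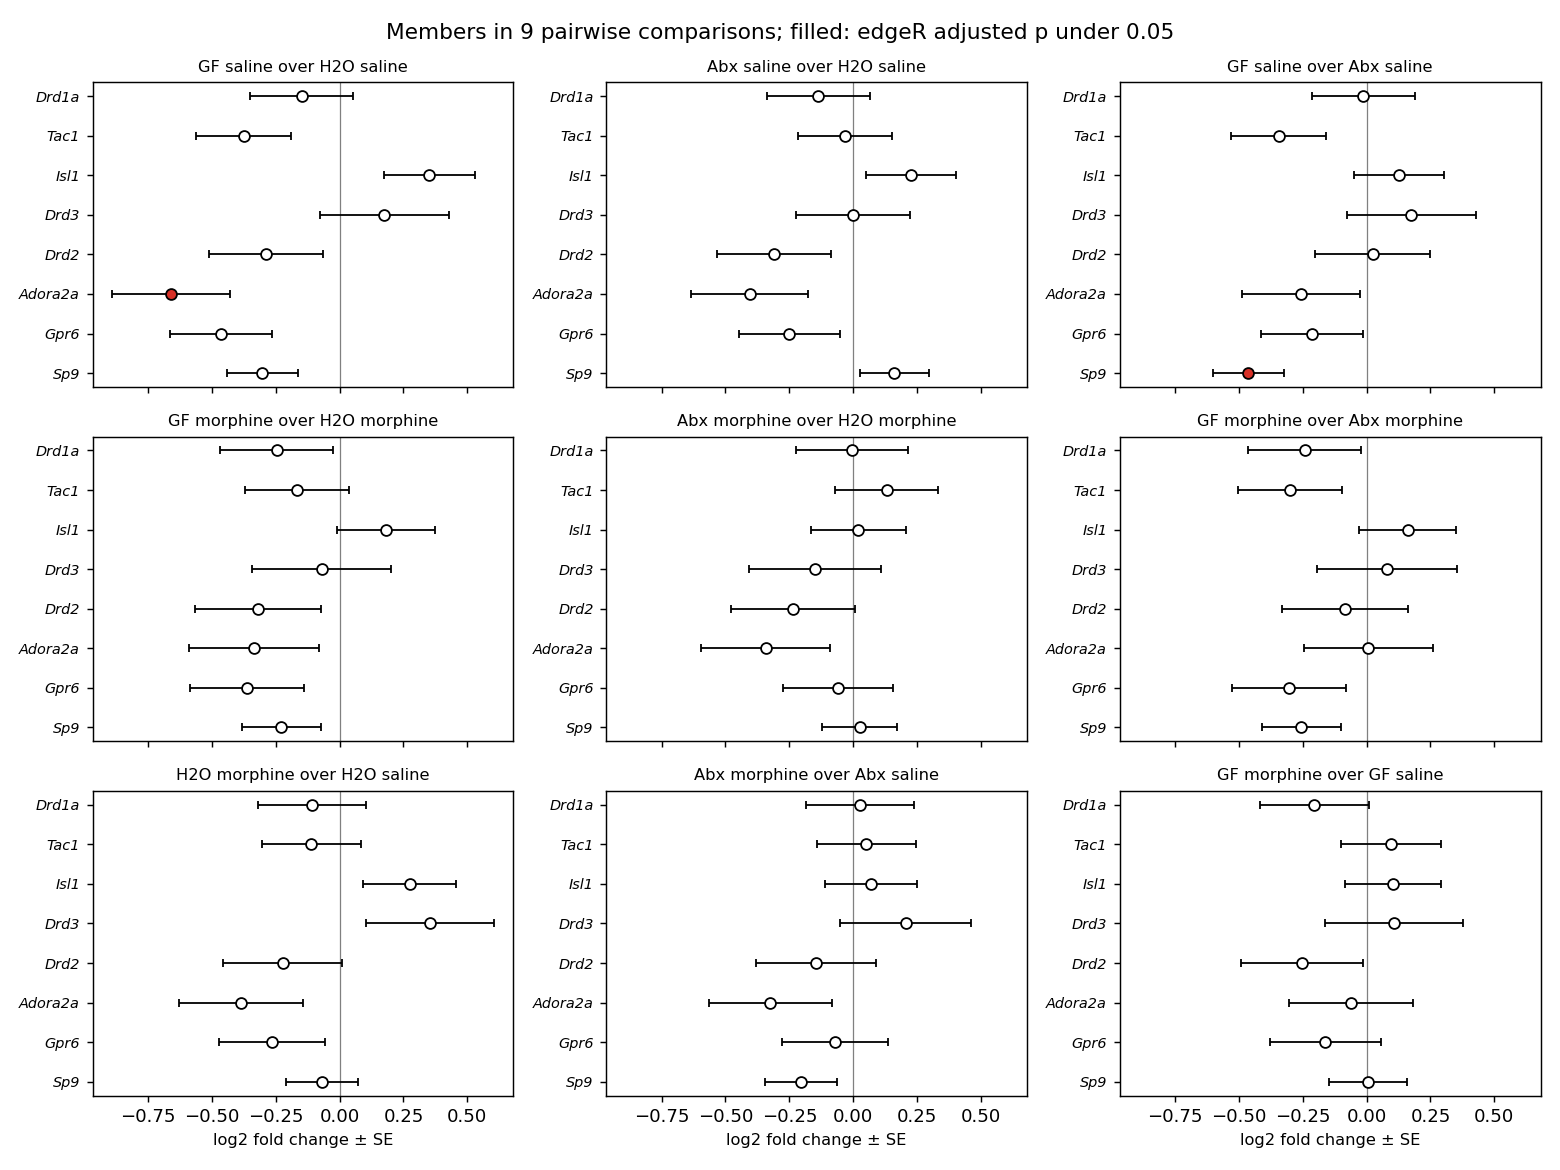
Log2 fold change ± SE (x axis) of each gene (y axis) in 9 pairwise comparisons, with genes past an edgeR adjusted p of 0.05 filled in red. The 2 filled points are Adora2a at -0.66 in GF saline over H2O saline and Sp9 at -0.46 in GF saline over Abx saline.

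The shared-neuron adjustment changed further values of Adora2a. With that list's level in the fit Adora2a was called lower in Abx morphine against H2O morphine mice (-0.20, edgeR adjusted p = 0.0368) and in Abx morphine against Abx saline mice (-0.23, adjusted p = 0.0218). It was called higher in GF morphine against Abx morphine mice (0.18, adjusted p = 0.0373). The difference between the GF and Abx morphine responses of Adora2a was 0.32 in that fit (adjusted p = 0.0344). The same fit called more genes overall: 16.1% of genes in Abx morphine against H2O morphine, 9.52% in Abx morphine against Abx saline, 32.55% in GF morphine against Abx morphine mice and 5.02% for the difference in response. In GF saline against H2O saline mice it called 5300 genes, against 4807 without the covariate.

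**Figure D3:**
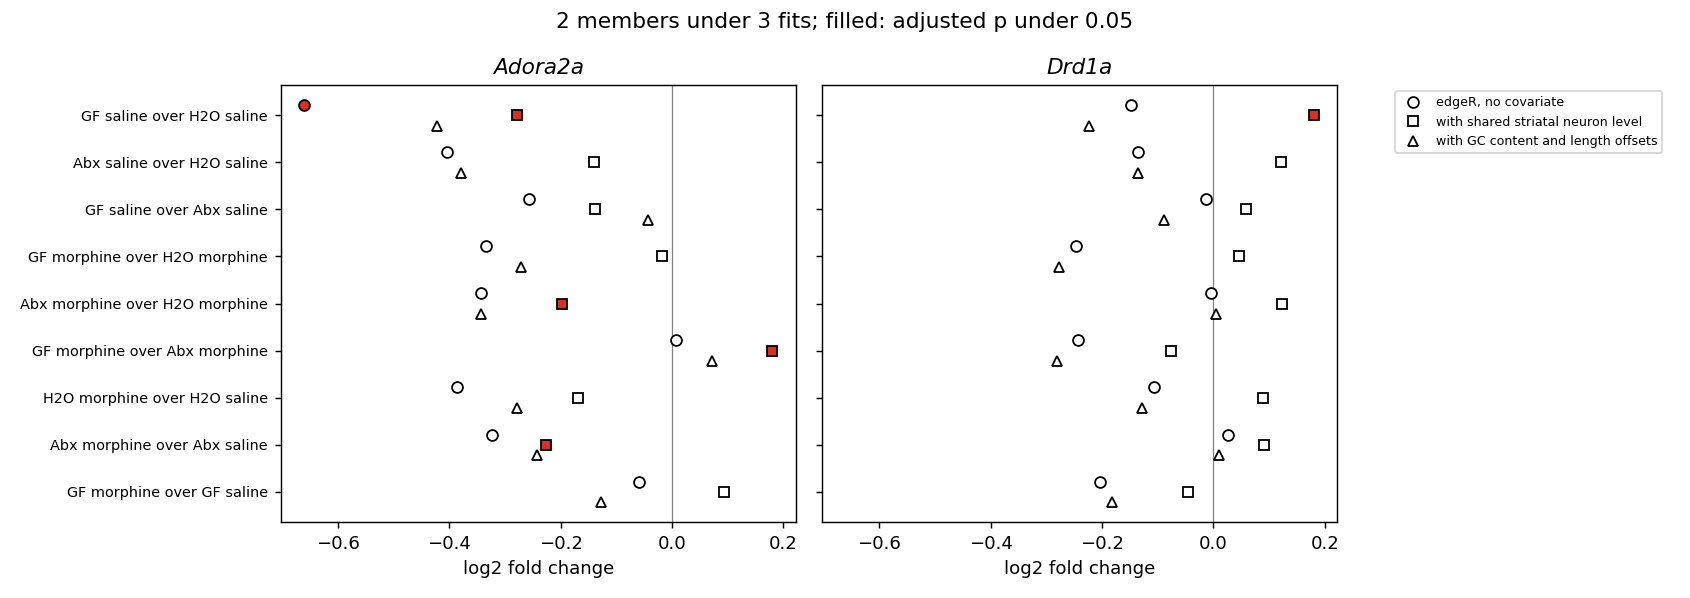
Log2 fold change (x axis) of Adora2a and Drd1a in the 9 comparisons (y axis) under the edgeR fit without covariate (circles), with the level of shared striatal neuron genes (squares) and with GC content and length offsets (triangles); red fill marks an adjusted p under 0.05. Drd1a in GF saline over H2O saline stands at -0.15 without the covariate and at 0.18 with it, and Adora2a stays below 0 there under all 3.

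Over the 33 libraries most members varied together. The genes of a pair share library, depth and base composition effects, so these correlations are a description. Log2 CPM of Drd1a and Drd2 correlated at Pearson r = 0.94, Drd2 and Adora2a at 0.96, Adora2a and Gpr6 at 0.93 and Drd1a and Tac1 at 0.89. Pairs within a side were not all close: Drd1a and Isl1 correlated at 0.30, Tac1 and Isl1 at 0.34, Drd2 and Sp9 at 0.67, Adora2a and Sp9 at 0.65 and Gpr6 and Sp9 at 0.73. Over the 30 libraries left without the 3 that stood apart, Drd1a and Drd2 correlated at 0.91, Drd1a and Tac1 at 0.80 and Drd1a and Isl1 at 0.12. After removal of group means Drd1a and Drd2 correlated at 0.96, and after correction for GC content and length at 0.94.

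The shared medium spiny list tracked these genes. Its level correlated with Drd2 at 0.98, with Drd1a at 0.97, with Adora2a at 0.96, with Gpr6 at 0.95, with Tac1 at 0.85, with Sp9 at 0.715 and with Drd3 at 0.64 over 33 libraries. Isl1 stood apart, with 0.16. Without the 3 libraries the values were 0.98 for Drd2, 0.94 for Drd1a and for Adora2a, 0.91 for Gpr6, 0.72 for Tac1, 0.63 for Sp9, 0.47 for Drd3 and -0.06 for Isl1. Isl1 correlated with the cholinergic list at 0.575, with the cortical-type list at -0.54 and with the list of other interneurons at -0.74. Drd1a and Tac1 correlated with the oligodendrocyte list at -0.62 and -0.74 over the 33 libraries. GF saline replicate 5 had the lowest Drd1a (91.7 CPM) and Tac1 (79.0 CPM) of the study and the oligodendrocyte sum of 9823 CPM. Correlations with these other lists were not computed without it.

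**Figure D4:**
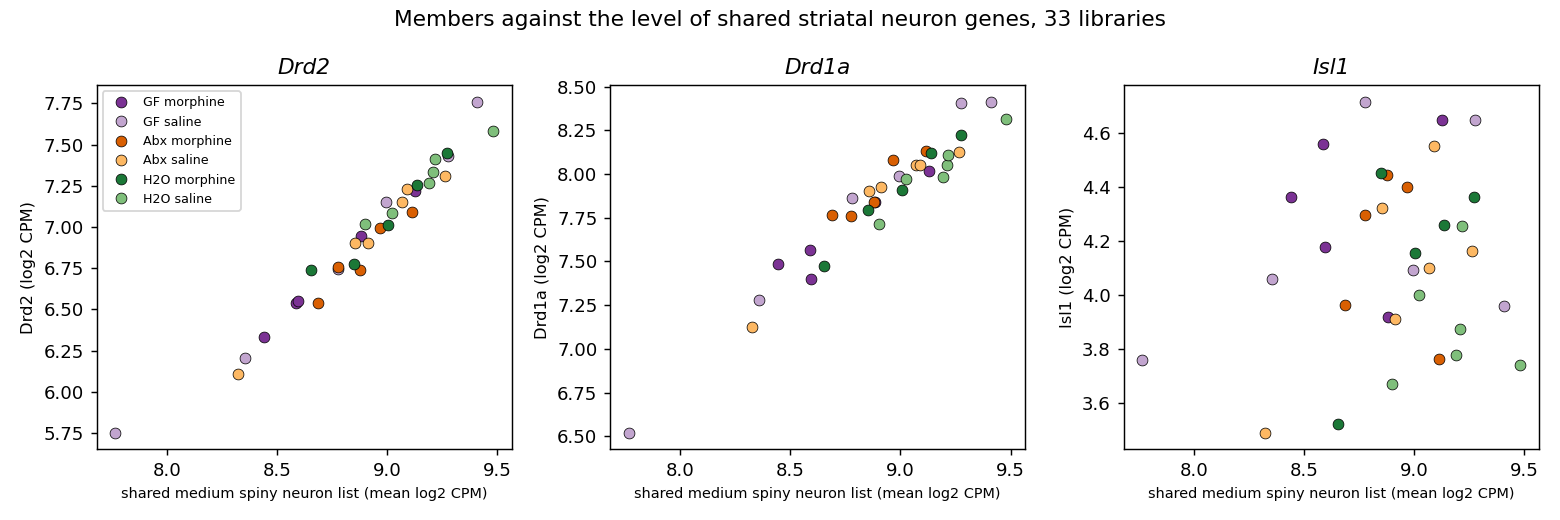
Log2 CPM of Drd2, Drd1a and Isl1 (y axes) against the mean log2 CPM of 16 genes shared by both medium spiny classes (x axes), 1 point per library, coloured by group. Drd2 and Drd1a lie near a line (r = 0.98 and 0.97), and Isl1 does not (r = 0.16).

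The genes nearest to each member over the 33 libraries were named by taking the 3 highest Pearson correlations of log2 CPM. For Drd1a these were the potassium channel subunit gene Kcnab1 (0.97), the transcription factor gene Foxp1 (0.95) and Sh3rf2 (0.95). For Drd2 they were Syndig1l (0.97), the adenylyl cyclase gene Adcy5 (0.96) and Pde1b (0.96), for Adora2a Pde1b (0.98), Gng7 (0.97) and Syndig1l (0.95), and for Gpr6 Serpina9 (0.96), Lmo2 (0.95) and Pde1b (0.95). For Tac1 they were Upb1 (0.92), the lipoprotein lipase gene Lpl (0.90) and the retinoic acid receptor gene Rarb (0.90). The lower-level members had looser neighbours. For Drd3 these were Pde8b (0.855), Celf1 (0.85) and Dgkh (0.84), for Sp9 Celf3 (0.87), the melanin-concentrating hormone receptor gene Mchr1 (0.86) and Pdzd4 (0.855), and for Isl1 Gpr149 (0.84), the GABA-making enzyme gene Gad2 (0.79) and Klhl7 (0.77).

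The balance between both classes was read within each library, first as the ratio of Drd1a to Drd2 CPM. Both genes sit in 1 library, so library scaling cancels. The ratio was 1.74, 1.86, 2.04, 2.22 and 1.80 in GF morphine mice. It was 1.57, 1.88 and 2.17 in GF saline mice (lowest, median, highest). It was 2.34, 2.05, 2.14, 2.01 and 2.12 in Abx morphine mice. It was 1.76, 1.93 and 2.03 in Abx saline mice. In H2O morphine mice it was 2.03, 1.82, 1.66, 1.71 and 1.86, and in H2O saline mice 1.62, 1.65 and 1.84. Drd1a had more reads than Drd2 in every one of the 33 libraries, the H2O saline mice sat lowest and closest together, and the Abx morphine mice sat highest. The ratio does not allow for transcript length, so its level is not a ratio of molecules.

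On the log2 scale the Drd1a to Drd2 ratio averaged 0.945 ± 0.14 in GF morphine, 0.905 ± 0.18 in GF saline, 1.09 ± 0.08 in Abx morphine, 0.93 ± 0.09 in Abx saline mice, 0.86 ± 0.11 in H2O morphine and 0.74 ± 0.07 in H2O saline mice (SD, n = 5 with morphine, 6 with saline). Abx morphine mice (1.005 to 1.23) and H2O saline mice (0.70 to 0.88) did not overlap, a pair that differs in both drink and drug. Abx morphine exceeded Abx saline mice by 0.16 ± 0.05 (SE), with 4 of 5 libraries above all Abx saline libraries. Abx saline exceeded H2O saline mice by 0.19 ± 0.05, with 4 of 6 above all H2O saline libraries. GF saline exceeded H2O saline mice by 0.16 ± 0.08, with 3 of 6 above and 1 below all H2O saline libraries. Without GF saline replicates 1 and 5 that difference was 0.26 ± 0.07, with 3 of 4 above. Those replicates, at 0.65 and 0.77, were the lowest GF saline libraries in this ratio, so leaving them out raises the difference. As scores over the members these differences were given no p.

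Base content bears on the ratio, since the Drd1a transcript has 46% GC and that of Drd2 55%. Corrected for GC content and length, the log2 ratio averaged 0.89 ± 0.18 in GF morphine, 0.78 ± 0.17 in GF saline, 1.08 ± 0.06 in Abx morphine, 1.0 ± 0.08 in Abx saline mice, 0.85 ± 0.13 in H2O morphine and 0.85 ± 0.09 in H2O saline mice. Abx morphine mice had the highest mean, and their 1.03 to 1.18 still lay above the 0.775 to 1.01 of H2O saline mice. Abx morphine exceeded Abx saline mice by 0.07 ± 0.04 (SE) after the correction, with 1 of 5 libraries above all Abx saline libraries, against 4 of 5 without it. Without Abx saline replicate 5 as well, it was 0.09 ± 0.04 with 3 of 5 above. The GF saline mean fell below the H2O saline mean, the reverse of the order without the correction, and the H2O morphine mean came level with it.

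A second balance took 3 genes against 4: the mean log2 CPM of Drd1a, Tac1 and Isl1 minus that of Drd2, Adora2a, Gpr6 and Sp9. It averaged 0.47 ± 0.21 in GF morphine, 0.36 ± 0.26 in GF saline, 0.43 ± 0.20 in Abx morphine, 0.20 ± 0.08 in Abx saline mice, 0.23 ± 0.12 in H2O morphine and -0.03 ± 0.13 in H2O saline mice. All 5 GF morphine libraries (0.24 to 0.74) and 5 of 6 GF saline libraries lay above every H2O saline library, the exception being GF saline replicate 1 at -0.05. GF saline exceeded H2O saline mice by 0.39 ± 0.12 (SE). The D1 set has transcripts of 42.8% to 46% GC and the D2 set of 52.5% to 59.2%, and with the correction for GC content and length this difference was 0.12 ± 0.12, with 3 of 6 above. Without GF saline replicates 1 and 5 the uncorrected difference was 0.48 ± 0.12. Abx saline exceeded H2O saline mice by 0.23 ± 0.06 without the correction and by 0.20 ± 0.08 with it. Without Isl1 in the D1 set, GF saline exceeded H2O saline mice by 0.15 ± 0.09, with 2 of 6 above. GF morphine exceeded H2O saline mice by 0.49 ± 0.11, by 0.29 ± 0.12 with the correction (4 of 5 above) and by 0.23 ± 0.08 without Isl1 (3 of 5 above), so the full separation of these groups, which differ in both microbes and drug, was lost under both. With the correction the order of the highest means also changed, at 0.38 ± 0.21 in GF morphine and 0.42 ± 0.155 in Abx morphine mice.

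**Figure D5:**
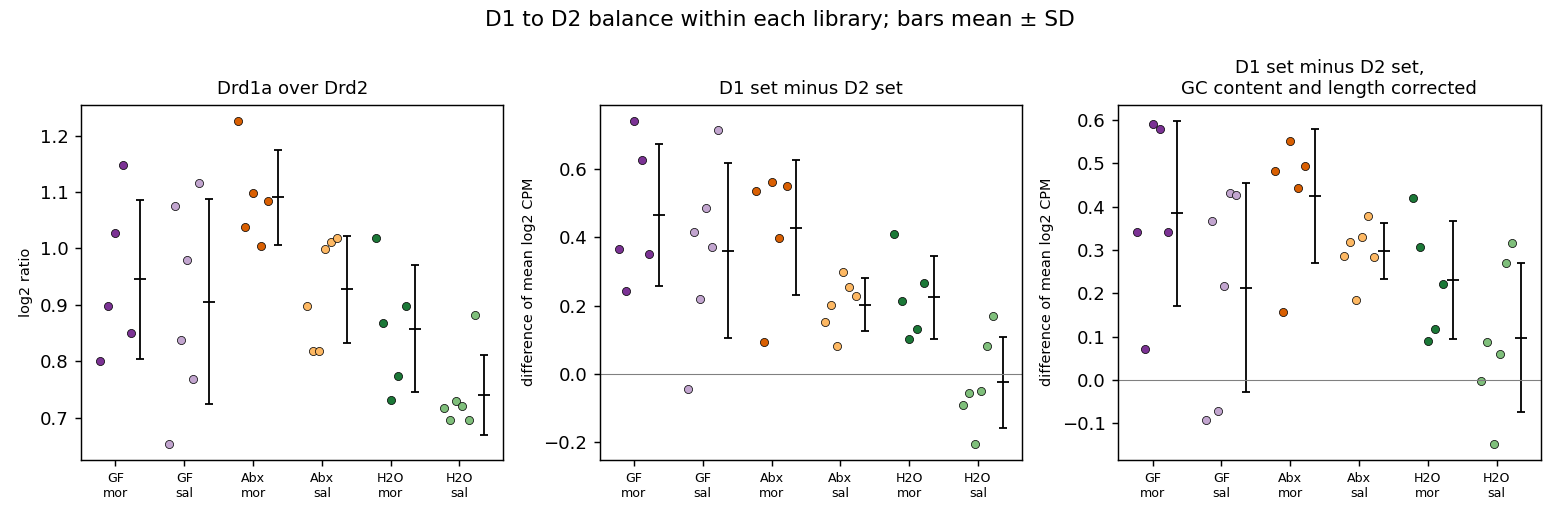
D1 to D2 balance per library (y axes, log2 scale) by group (x axes), as the Drd1a to Drd2 ratio, as the mean of 3 D1 genes minus that of 4 D2 genes, and as the same corrected for GC content and length; points are libraries, bars mean ± SD. Abx morphine libraries, 1.005 to 1.23, lie above H2O saline libraries, 0.70 to 0.88, in the first panel, and the GF saline mean of 0.36 in the second panel is 0.21 in the third.

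Other genes of both classes did not give the same order. The precursor genes of dynorphin (Pdyn, D1 side) and enkephalin (Penk, D2 side) gave a log2 ratio of -2.01 ± 0.22 in GF morphine, -2.04 ± 0.22 in GF saline, -2.08 ± 0.06 in Abx morphine, -1.88 ± 0.07 in Abx saline mice, -1.69 ± 0.12 in H2O morphine and -1.90 ± 0.15 in H2O saline mice. Abx morphine mice were thus lowest, where they were highest for Drd1a over Drd2. All 5 Abx morphine libraries lay below all H2O morphine libraries and below all Abx saline libraries in this ratio. The mean of 6 other D1 genes minus that of 5 other D2 genes was -1.46 ± 0.11 in Abx morphine and -1.31 ± 0.07 in H2O saline mice. Over 33 libraries it correlated at -0.17 with the balance of 3 against 4 genes and at -0.41 with the log2 ratio of Drd1a to Drd2. The Pdyn to Penk ratio correlated with these at -0.16 and -0.26. The level of the shared medium spiny list correlated with them at -0.55 and -0.40, and over the 30 libraries without the 3 that stood apart at -0.66 and -0.58. The balance of 3 against 4 genes also correlated with the cortical-type level at -0.41 and with the hypothalamic level at 0.425. The part of these levels in the balances was not tested.

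Within the D2 side the partners did not keep a fixed ratio. The log2 ratio of Adora2a to Drd2 was 0.68, 0.85 and 1.02 in GF saline mice (lowest, median, highest) and 1.13, 1.19 and 1.27 in H2O saline mice, so all 6 GF libraries lay below all H2O libraries. The difference was -0.35 ± 0.05 (SE), and -0.29 ± 0.05 without GF saline replicates 1 and 5. In GF morphine mice the ratio averaged 1.01 ± 0.14, in Abx morphine 0.92 ± 0.08, in Abx saline 1.07 ± 0.12 and in H2O morphine 1.02 ± 0.11. All 5 Abx morphine libraries also lay below all H2O saline libraries. With GC content and length offsets the fitted log2 fold changes in GF saline against H2O saline mice were -0.42 for Adora2a and -0.11 for Drd2. On the D1 side the log2 ratio of Tac1 to Drd1a averaged -0.24 ± 0.12 in GF saline mice and -0.01 ± 0.16 in H2O saline mice.

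Of genes that supply or bind dopamine, 8 were tested. In GF saline against H2O saline mice 2 rose and 0 fell: Slc18a2, the vesicular monoamine transporter (0.82 ± 0.28, edgeR adjusted p = 0.0236), and Maob, which breaks dopamine down (0.18 ± 0.07, adjusted p = 0.0466). That comparison called 32.9% of all genes, so 2 of 8 is not more than over all genes. The median over the 8 genes was -0.08, against 0.01 over all genes tested. Th, the rate-limiting enzyme of dopamine synthesis (-0.19 ± 0.16, edgeR adjusted p = 0.372), and the dopamine transporter gene Slc6a3 (-0.27 ± 0.35, adjusted p = 0.576) had negative values and were not called. Ddc, which makes dopamine from L-DOPA, rose in Abx morphine mice, by 0.75 ± 0.18 against H2O morphine mice (edgeR adjusted p = 0.00599) and by 0.59 ± 0.17 against Abx saline mice (adjusted p = 0.0398). These 2 comparisons called 10.4% and 5.37% of all genes. Th was higher in GF morphine than in Abx morphine mice by 0.62 ± 0.17 (edgeR adjusted p = 0.00849), where 28.1% of all genes were called.

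Of the genes of adenosine and tachykinin signalling, the partners of Adora2a and Tac1, 10 were tested. Over all genes 32.9% were called in GF saline against H2O saline mice and 27.3% in GF saline against Abx saline mice. Among morphine mice 5.78% were called in GF against H2O, 28.1% in GF against Abx and 10.4% in Abx against H2O mice. The A1 receptor gene Adora1 fell in GF mice in all 4 comparisons with conventional mice. It had 107, 141 and 236 CPM in GF saline and 177, 208 and 229 CPM in H2O saline mice (-0.46 ± 0.14, edgeR adjusted p = 0.0105), and differed by -0.66 ± 0.15 in GF morphine against H2O morphine mice (adjusted p = 0.00936). The 4 comparisons draw on the same 11 GF libraries, so they are not independent. In each of them log2 fold change fell with GC content over all genes (Spearman -0.50 to -0.19). The part of base content in the Adora1 values was not tested. Against H2O saline mice the adenosine transporter gene Slc29a1 fell (-0.26 ± 0.10, adjusted p = 0.0408), and Tacr3, the receptor of neurokinin B, and Tac2, its precursor, rose (0.66 ± 0.23 and 1.17 ± 0.45). In Abx morphine against H2O morphine mice Nt5e, which makes adenosine outside cells, rose by 0.79 ± 0.19 (adjusted p = 0.00592) and Ada, which degrades it, by 1.51 ± 0.32 (adjusted p = 0.00214). In GF morphine against Abx morphine mice Nt5e fell by 0.997 on the log2 scale (adjusted p = 0.000421), while Tacr1, the receptor of substance P, rose by 0.47 ± 0.14 (adjusted p = 0.0156).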

How the data were processed

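Poly(A) RNA of nucleus accumbens was sequenced in 33 libraries. The deposited table holds raw read counts per gene; the submitters' processing notes name STAR 2.4.0 as well as FastQC and edgeR. For the build, the annotation and the strandedness of counting, the entry is: not given in the sources used here. A second deposited table holds the authors' normalised signal for 10871 genes, which for the 10852 compared equals the count divided by 1 constant per library, so counts were used. Of 27 gene names turned into dates, 19 were restored and 8 left out, and 5 tally rows were left out; 19.3% to 35.4% of tallied reads had no gene. Library depth was 4.87 to 15.3 megareads, and replicates differed beyond sampling noise.

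Counts were tested with edgeR 4.0.16 (R 4.3.3, limma 3.58.1): filterByExpr at a minimum count of 10, TMM factors, 1 fit of 6 group means (27 residual degrees of freedom), quasi-likelihood tests, two-sided, Benjamini-Hochberg over 14602 genes, threshold 0.05. CPM levels are TMM-scaled and log2 CPM used a prior count of 0.5. The fit was tested on simulated data. GC content and exonic length came from GENCODE M21 (14494 genes; lowess span 0.3). The alternatives were RLE and upper-quartile factors, no filter, DESeq2 1.42.0, a replicate block, tissue covariates, fits of 2 groups, each library left out, and, chosen after seeing the data, GC and length offsets and leaving out 3 libraries (also for levels, balances and correlations). The text names the 8 members, the 3 genes most correlated with each (not gene models named Gm or ending in Rik), and genes of fixed lists past the threshold. Members and lists were chosen with earlier results of these data known. The result of 1 listed gene is not reported here.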

Additional observations from a re-analysis of the deposited data

Results flagged for a closer look

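A library far from the rest of its group was found in 5 of 60 groups of values tested; chance gives about 1 in 20. Abx saline replicate 5 was low for 3 genes. It had 139 CPM of Drd1a, against 239 to 280 CPM in the other 5 Abx saline mice, 163 CPM of Tac1, against 263 to 279 CPM, and 37.65 CPM of Gpr6, against 67.2 to 82.3 CPM. Abx morphine replicate 2 was high for Gpr6, at 85.95 CPM, against 54.85 to 61 CPM in the other 4 Abx morphine mice. H2O saline replicate 9 had a log2 ratio of Drd1a to Drd2 of 0.882, against 0.696 to 0.729 in the other 5 H2O saline mice.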

How the results depend on the processing

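In GF saline against H2O saline mice 1 member was called. Upper-quartile factors and the replicate block each called 3 (Adora2a, Gpr6, Sp9), the shared medium spiny covariate 3 (Drd1a, Isl1, Adora2a), leaving out 3 libraries 3 (Isl1, Adora2a, Gpr6) and the fit of both groups alone 0. Over all genes the main fit called 4807, upper-quartile factors 4978 and the replicate block 4150. The covariate called 5300, leaving out 3 libraries 5765 and the fit of both groups alone 3770. Drd1a stood at 0.18 with that covariate, against -0.15 without it. Leaving out single libraries gave 0 to 4 calls: 0 without H2O saline replicate 5 or GF saline replicate 2, 5 or 6, 2 without H2O saline replicate 8, 3 without GF saline replicate 4 and 4 without GF saline replicate 1. In GF saline against Abx saline mice 1 member was called, 2 with the covariate (Tac1, Sp9), 0 in the fit of both groups alone, and 1 to 2 without single libraries (2 without GF saline replicate 4). Over all genes the main fit called 3990 there, the covariate 4851 and the fit of both groups alone 2278. With GC content and length offsets Tac1 was the 1 member called in both comparisons (-0.55 and -0.52), where 2860 and 2315 genes were called. The covariate called 1 member, Adora2a, against 0 without it, in Abx morphine against H2O morphine, GF morphine against Abx morphine and Abx morphine against Abx saline mice, and in the GF minus Abx morphine response. Deviations from group means were correlated between libraries of the same replicate number in different groups. Over 66 such pairs r averaged 0.00 (-0.45 to 0.42), with 20 over 0.1. Pairs of unlike number were not compared, so a pairing by number was not tested. Of 2256 other values of single members, 175 had the other sign, 1 of them past the threshold. Without Isl1 the 3 to 4 gene balance averaged 1.58 in GF morphine, 1.5 in GF saline, 1.70 in Abx morphine, 1.48 in Abx saline mice, 1.47 in H2O morphine and 1.35 in H2O saline mice. From summed CPM it averaged 0.161 in GF morphine, 0.0833 in GF saline, 0.332 in Abx morphine, 0.0761 in Abx saline mice, 0.0148 in H2O morphine and -0.202 in H2O saline mice. With GC content and length correction it averaged 0.385 in GF morphine, 0.213 in GF saline, 0.425 in Abx morphine, 0.297 in Abx saline mice, 0.231 in H2O morphine and 0.0975 in H2O saline mice. Abx morphine thus had the highest mean under these 3 choices and GF morphine without them. Without the 3 libraries it averaged 0.459 in GF saline and 0.193 in Abx saline mice. The cause of these differences was not tested. Drd3, at 18 to 175 reads, is the member most limited by depth.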

Other observations

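The log2 ratio of Gpr6 to Drd2 averaged -1.06 ± 0.21 in GF morphine, -1.13 ± 0.16 in GF saline, -0.86 ± 0.22 in Abx morphine, -0.92 ± 0.11 in Abx saline mice, -1.03 ± 0.11 in H2O morphine and -0.99 ± 0.08 in H2O saline mice (SD, n = 5 with morphine, 6 with saline). GF saline minus Abx saline was -0.21 ± 0.08 (SE), with 4 of 6 GF libraries below all Abx libraries. The log2 ratio of Tac1 to Adora2a was highest in Abx morphine mice, at 0.29 ± 0.23, and lowest in H2O saline mice, at -0.46 ± 0.17. All 5 Abx morphine libraries (0.02 to 0.57) lay above all H2O saline libraries (-0.68 to -0.25), a pair that differs in both drink and drug.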
